A study of Homo sapiens with 4 samples.

Results

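The 37 genes described here are 22 transcriptional targets of p53 and 15 genes of the BCL2 family, the caspases and their regulators. They were taken by gene name from tables of 29437 genes and occupy 38 rows, because DIABLO is listed under a pair of identifiers (ENSG00000184047 and ENSG00000284934). The cells were CAL27, an established line from a human squamous carcinoma of the tongue. One group of 2 libraries was labelled as overexpressing CCL20, a secreted chemokine, after transduction with a lentivirus. The other 2 libraries came from negative control cells. Polyadenylated RNA was sequenced, and the labels place the harvest at 48 hours. The labels do not describe the contents of the control vector, the number of clones or whether the 2 libraries of a group came from separate cultures, so the p-values measure only the spread between these libraries.

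p53 is a transcription factor that binds DNA as a tetramer after DNA damage or other stress and switches on genes for cell cycle arrest, DNA repair, metabolism and cell death. It also switches on MDM2, the ubiquitin ligase that marks p53 for degradation, which closes a feedback loop. In the mitochondrial route to apoptosis, BH3-only proteins neutralise anti-apoptotic proteins such as BCL2 and MCL1 and set free BAX and BAK1, which open the outer mitochondrial membrane. Cytochrome c then assembles with APAF1 into the apoptosome, which activates CASP9, while death receptors such as FAS act through CASP8.

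The element that p53 recognises consists of a pair of half-sites of 10 nt, with a short spacer or none between them, and was searched by the published p53 consensus. RefSeq promoter windows (GRCh38.p14, 250 bases before to 50 after each annotated start) were found for 30 of the 37 genes. A match had to hold CNNG in the middle of each half-site, with at most 2 mismatches to the consensus in all and a spacer of at most 13 nt. The consensus reads the same on both strands, so a single scan covers both. A pair was present in 5 of the 17 p53 targets with a window and in BAK1 alone of the 13 BCL2 family and caspase genes, against 3.62% of all genes with a window. The targets were listed because p53 is known to act on them, so that share is no finding. The 6 elements are printed to show the kind of sequence that p53 recognises and where these promoters hold it; capitals mark the half-sites, and lower case marks the spacer and the flanks, except for DDB2, where only the element is given.
DDB2: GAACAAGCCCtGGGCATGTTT
MDM2: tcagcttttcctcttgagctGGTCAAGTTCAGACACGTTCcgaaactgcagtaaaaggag
FAS: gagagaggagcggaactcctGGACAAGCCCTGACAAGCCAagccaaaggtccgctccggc
AEN: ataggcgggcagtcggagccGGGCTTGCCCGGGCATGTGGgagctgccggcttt
FDXR: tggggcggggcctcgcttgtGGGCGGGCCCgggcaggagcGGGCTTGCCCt
BAK1: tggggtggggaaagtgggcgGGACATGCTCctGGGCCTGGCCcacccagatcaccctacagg
These stretches lie at chr11:47214979-47214999 (plus strand, DDB2), chr12:68808903-68808962 (plus, MDM2), chr10:88991289-88991348 (plus, FAS), chr15:88621286-88621339 (plus, AEN), chr17:74872995-74873045 (minus, FDXR) and chr6:33580308-33580369 (minus, BAK1). The DDB2 element matched the consensus at all 20 positions, and each of the others had 2 mismatches. For all 6 genes the annotated start beside the element lies inside the gene, downstream of its first base in GENCODE 29. The DDB2 element follows that start, and the other elements precede theirs. A match of letters is a description of the window and does not show that p53 was bound in these cells.

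Total gene counts lay between 15355030 and 16870325 with CCL20 overexpression and between 13681862 and 17860695 in the negative control. FPKM is the read count scaled by the length of all annotated exons and by library total. That length can exceed the mRNA length, as for MDM2 (13284 against 2523 nt), so levels compare only roughly between genes. CCL20 was at 15.2 and 11.3 FPKM in the overexpression libraries, against 8.62 and 7.10 FPKM in the control libraries. CCL20 was 1.94-fold higher (log2 fold change 0.95, SE 0.21, adjusted p = 0.0143 in edgeR), but its mRNA is short, and in the decile of shortest mRNAs the median coding gene had a log2 fold change of 0.98. With an offset for mRNA length its log2 fold change was 0.06, so the level of CCL20 alone does not check the labels. Squamous epithelial markers summed to 891 and 1143 FPKM with overexpression and to 838 and 904 FPKM in the control, with 6 of 7 at a mean of at least 1 FPKM. Sums of 4 endothelial markers were 5.27 and 5.10 FPKM with overexpression, against 8.81 and 8.23 FPKM in the control, with 1 of 4, CDH5, at a mean of at least 1 FPKM. Fibroblast markers summed to 2.93 and 3.51 FPKM with overexpression, against 4.71 and 5.58 FPKM in the control (1 of 5 at that level), and myeloid markers to 2.89 and 3.65 FPKM with overexpression, against 4.03 and 3.66 FPKM in the control (2 of 4). No T cell or B cell marker reached a mean of 1 FPKM. The part of these differences in the results below was not tested. In bulk RNA, fewer cells expressing a gene and less of its RNA per cell cannot be told apart.

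Of the 37 genes, 33 had a mean of at least 1 FPKM and were tested with edgeR among 12168 genes. The threshold for a call was an adjusted p of 0.05, and gene coordinates are those of GRCh38 in GENCODE 29. With CCL20 overexpression 7 of the 33 rose and 4 fell, and 22 did not pass the test. Among all tested genes 16.5% rose and 15.7% fell, so the 21.2% and 12.1% of the members stand near the background. The p53 targets gave 3 that rose (BAX, GADD45A and FDXR) and 2 that fell (TNFRSF10B and XPC) of 20 tested, or 15% and 10%. The BCL2 family and caspase genes gave 4 that rose (BCL2L1, BID, BAD and BIK) and 2 that fell (XIAP and APAF1) of 13 tested, or 30.8% and 15.4%. The difference between the lists in these shares is a description of few genes and was not tested. The median log2 fold change was 0.06 for the p53 targets and 0.15 for the BCL2 family and caspase genes, against 0.00 for all tested genes. On the deposited FPKM scale 11 members had both overexpression libraries above both controls and 14 had both below, where the shares of all tested genes were 25.8% and 46.9%. FPKM was scaled by total count, and edgeR's TMM factors raise every log2 fold change by 0.21 relative to that scale.

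**Figure D1:**
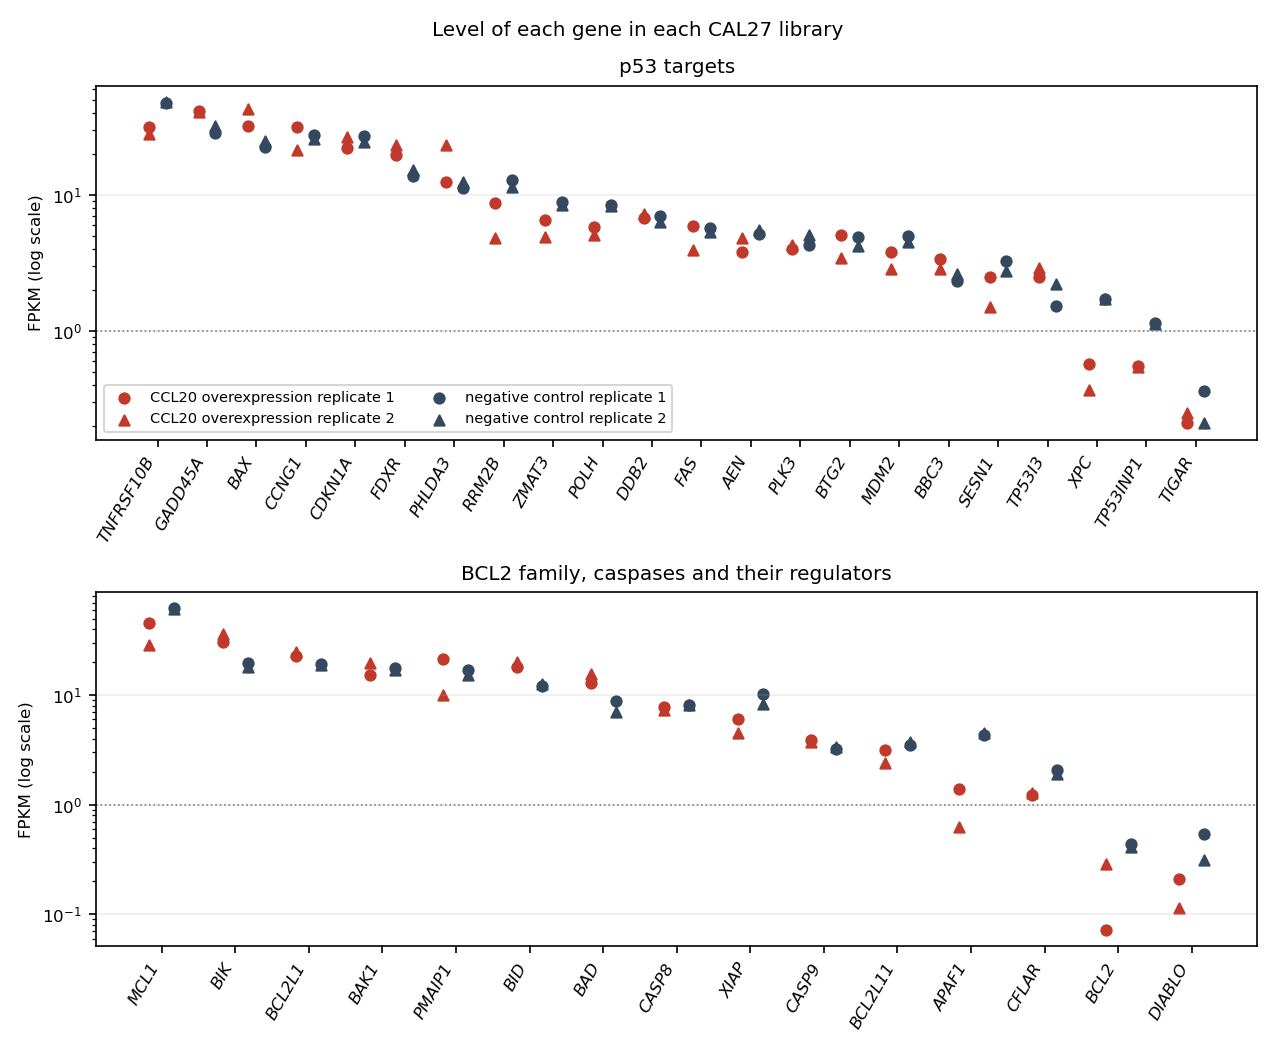
FPKM (log axis) of the 37 genes in each library, ordered by mean level, with p53 targets above and BCL2 family and caspase genes below; red marks are CCL20 overexpression, dark marks the negative control, circles replicate 1 and triangles replicate 2. The dotted line is the filter of 1 FPKM, under which TP53INP1, TIGAR, BCL2 and DIABLO fall by their means; XPC and APAF1 show the widest gap between the groups among the tested genes.

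CDKN1A, the cyclin-dependent kinase inhibitor p21 through which p53 arrests the cell cycle, was at 22.0 and 26.7 FPKM with overexpression, against 27.1 and 24.4 FPKM in the control. Its libraries interleaved between the groups, with a log2 fold change of 0.13 (SE 0.19, adjusted p = 0.601 in edgeR). MDM2 was at 3.77 and 2.86 FPKM with overexpression and at 4.98 and 4.48 FPKM in the control. Both overexpression libraries lay below both controls, yet the log2 fold change of -0.31 (SE 0.18) did not pass the test (edgeR adjusted p = 0.204). The per-library ratio of MDM2 to CDKN1A was 0.171 and 0.107 with overexpression, against 0.184 in each control library.

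Among the 4 arrest genes only GADD45A passed. GADD45A (ENSG00000116717, chromosome 1, 67685061 to 67688338, plus strand), a stress sensor that inhibits the CDK1 kinase, was at 41.7 and 40.3 FPKM with overexpression and at 28.5 and 31.9 FPKM in the control. Both overexpression libraries were higher, and GADD45A rose 1.56-fold (log2 fold change 0.65, SE 0.16, adjusted p = 0.0209 in edgeR). PLK3, a stress-response kinase, averaged 4.17 ± 0.202 FPKM with overexpression and 4.69 ± 0.577 FPKM in the control (SD, n = 2 each), and BTG2, an antiproliferative cofactor of mRNA deadenylation, averaged 4.24 ± 1.16 FPKM with overexpression and 4.57 ± 0.467 FPKM in the control. Their log2 fold changes were 0.03 and 0.09, and neither passed.

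Of the feedback genes besides MDM2, PHLDA3 and CCNG1 showed wide spread in the overexpression pair. PHLDA3, which blocks AKT at the membrane, was at 12.5 and 23.3 FPKM with overexpression, against 11.2 and 12.5 FPKM in the control, and did not pass (log2 fold change 0.82, SE 0.30, adjusted p = 0.0674 in edgeR). CCNG1, cyclin G1, which recruits phosphatase 2A to MDM2, was at 31.5 and 21.4 FPKM with overexpression, against 27.4 and 25.7 FPKM in the control, so the overexpression libraries enclosed the controls. TP53INP1, a cofactor of p53 and of autophagy, was below the filter at 0.551 and 0.543 FPKM with overexpression, against 1.15 and 1.12 FPKM in the control, and it was not tested. On TMM-scaled counts, across the 33 tested members, the overexpression replicates differed by more than 1.5-fold in 5 and the control replicates in none, against 21.6% of all tested genes for the overexpression pair and 5.42% for the control pair.

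Repair targets held the p53 target with the largest absolute fold change. XPC (ENSG00000154767, chromosome 3, 14145147 to 14178783, minus strand) encodes the protein that first recognises helix distortions in global-genome nucleotide excision repair. It was at 0.570 and 0.371 FPKM in the overexpression libraries, from 42 and 30 reads, against 1.72 and 1.73 FPKM in the control libraries, from 113 and 148 reads. The controls nearly coincided and both overexpression libraries lay far below them. XPC fell 3.20-fold (log2 fold change -1.68, SE 0.29, adjusted p = 0.00655 in edgeR), on few reads and with 23.8% of its exonic bases overlapping an antisense gene, AC093495.1. Its mean over all libraries was 1.10 FPKM, so it reached the filter of 1 FPKM only through the control libraries. In the fit without a filter its log2 fold change was -1.63 (adjusted p = 8.83e-06 in edgeR). DDB2, which works beside XPC in damage recognition, did not pass the test. It was at 6.80 and 7.27 FPKM with overexpression, against 6.94 and 6.31 FPKM in the control (log2 fold change 0.30, SE 0.18, adjusted p = 0.232 in edgeR). The ratio of XPC to DDB2 was 0.0839 and 0.0509 with overexpression, against 0.248 and 0.274 in the control. This ratio sets an mRNA of 3832 nt (XPC) against one of 1870 nt (DDB2).

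POLH, the translesion polymerase eta, was at 5.83 and 5.07 FPKM with overexpression and at 8.42 and 8.32 FPKM in the control. RRM2B, the p53-inducible subunit of ribonucleotide reductase, was at 8.71 and 4.82 FPKM with overexpression, against 12.8 and 11.4 FPKM in the control. Both genes had their overexpression libraries below the controls, but their log2 fold changes of -0.42 (SE 0.18) and -0.65 (SE 0.25) missed the threshold (edgeR adjusted p = 0.105 and 0.0760). The replicates of RRM2B with overexpression were farther apart from each other than the higher of them was from the nearer control.

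Of the metabolic targets, FDXR passed. FDXR (ENSG00000161513, chromosome 17, 74862497 to 74873031, minus strand) encodes ferredoxin reductase, which passes electrons to mitochondrial cytochrome P450 enzymes and to iron-sulfur cluster assembly. Its level was 19.7 and 23.2 FPKM with overexpression, against 13.8 and 15.2 FPKM in the control. The groups were apart, and FDXR rose 1.71-fold (log2 fold change 0.77, SE 0.18, adjusted p = 0.0169 in edgeR). FDXR was the single gene that passed among the 6 whose printed windows hold a p53 element. Among all tested genes 16.5% rose and 15.7% fell, so that count is no result about the element. TP53I3, a quinone oxidoreductase linked to oxidative stress, was at 2.48 and 2.90 FPKM with overexpression, against 1.52 and 2.20 FPKM in the control (log2 fold change 0.73, SE 0.30, adjusted p = 0.0924 in edgeR). SESN1, a sestrin that restrains mTORC1 under stress, was at 2.48 and 1.50 FPKM with overexpression, against 3.28 and 2.74 FPKM in the control, and did not pass. TIGAR, a fructose bisphosphatase, was at 0.211 and 0.251 FPKM with overexpression, against 0.364 and 0.209 FPKM in the control, and was not tested.

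The remaining p53 targets outside the BCL2 family and the death receptors were ZMAT3 and AEN. ZMAT3, an RNA-binding protein that acts in splicing, was at 6.54 and 4.87 FPKM with overexpression, against 8.80 and 8.43 FPKM in the control (log2 fold change -0.40, SE 0.18, adjusted p = 0.116 in edgeR). AEN, a nuclease that acts during apoptosis, was at 3.80 and 4.83 FPKM with overexpression, against 5.16 and 5.56 FPKM in the control. All overexpression values of both genes were below the control values on the FPKM scale, and neither passed.

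The pair of death receptor targets gave one call. TNFRSF10B (ENSG00000120889, chromosome 8, 23020133 to 23069179, minus strand), the TRAIL receptor DR5, had the highest mean FPKM of the p53 targets, a level per nt of all annotated exons and not per nt of the mRNA. It was at 31.8 and 28.0 FPKM with overexpression, against 47.3 and 48.1 FPKM in the control. The groups were well apart, and it fell 1.39-fold (log2 fold change -0.47, SE 0.16), close to the threshold (edgeR adjusted p = 0.0492). FAS, the receptor for FAS ligand, was at 5.90 and 3.96 FPKM with overexpression, against 5.72 and 5.33 FPKM in the control. Its overexpression libraries enclosed the controls, and the log2 fold change was 0.03 (SE 0.21, adjusted p = 0.924 in edgeR).

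BAX and BAK1, the pore-forming effectors, differed in their calls. BAX (ENSG00000087088, chromosome 19, 48954815 to 48961798, plus strand), a p53 target, was at 32.3 and 42.9 FPKM with overexpression, against 22.5 and 25.0 FPKM in the control. Both overexpression libraries were higher, and BAX rose 1.83-fold (log2 fold change 0.87, SE 0.21, adjusted p = 0.0168 in edgeR). BAK1, the close relative of BAX that MCL1 and BCL-XL restrain, was at 15.4 and 19.7 FPKM with overexpression, against 17.8 and 17.1 FPKM in the control. Those values interleaved, and its log2 fold change was 0.22 (SE 0.20, adjusted p = 0.419 in edgeR). The difference between BAX and BAK1 was not itself tested.

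Of the anti-apoptotic genes, BCL2L1 rose, MCL1 did not pass and BCL2 was too low to test. BCL2L1 (ENSG00000171552, chromosome 20, 31664452 to 31723989, minus strand), which encodes BCL-XL, was at 23.0 and 24.9 FPKM with overexpression, against 19.1 and 18.9 FPKM in the control. It rose 1.45-fold (log2 fold change 0.54, SE 0.17, adjusted p = 0.0401 in edgeR), with 43.0% of its exonic bases shared with the antisense gene ABALON. MCL1, a short-lived protein that holds BAK1 in check, had the highest mean FPKM of all 37 genes on that exon-length scale. It was at 45.5 and 28.7 FPKM with overexpression, against 61.8 and 61.2 FPKM in the control. Both overexpression libraries were below the controls but differed widely from each other, and MCL1 missed the threshold (log2 fold change -0.54, SE 0.21, adjusted p = 0.0794 in edgeR). BCL2 was at 0.072 and 0.287 FPKM with overexpression, against 0.435 and 0.409 FPKM in the control.

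The ratio of MCL1 to BCL2L1, taken within each library, was 1.98 and 1.15 with overexpression, against 3.23 and 3.24 in the control. On the FPKM scale MCL1 thus led BCL2L1 in each of the 4 libraries, by less in both overexpression libraries. FPKM is taken per nt of all annotated exons, and the mRNAs differ in length (MCL1 3932 nt, BCL2L1 2594 nt). With the mRNA length offset described below, MCL1 came to -0.29 and BCL2L1 to 0.48, and neither passed. Such ratios were chosen after values of these genes had been seen and carry no test.

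Among the 6 BH3-only genes, 3 rose and none fell, against 16.5% and 15.7% of all tested genes. BAD (ENSG00000002330, chromosome 11, 64269830 to 64284704, minus strand), which binds BCL-XL when it is not phosphorylated, was at 12.8 and 15.6 FPKM with overexpression, against 8.77 and 6.98 FPKM in the control. BIK (ENSG00000100290, chromosome 22, 43110748 to 43129712, plus strand), a BH3-only protein of the endoplasmic reticulum membrane, was at 30.4 and 35.8 FPKM with overexpression, against 19.6 and 18.1 FPKM in the control. BID (ENSG00000015475, chromosome 22, 17734138 to 17774770, minus strand), which CASP8 cleaves to join the death receptor route to the mitochondria, was at 18.2 and 19.9 FPKM with overexpression, against 12.2 and 12.6 FPKM in the control. In each of these genes both overexpression libraries lay above both controls. BAD rose 2.10-fold (log2 fold change 1.07, SE 0.22), BIK 2.03-fold (1.02, SE 0.20) and BID 1.78-fold (0.83, SE 0.17), with edgeR adjusted p = 0.0111, 0.00891 and 0.0102. BAD shares 23.7% of its exonic bases with GPR137 on the opposite strand.

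The other BH3-only genes, BBC3, PMAIP1 and BCL2L11, did not pass; p53 is known to induce BBC3 and PMAIP1. BBC3, which encodes PUMA, was at 3.38 and 2.85 FPKM with overexpression, against 2.32 and 2.61 FPKM in the control (log2 fold change 0.54, SE 0.22, adjusted p = 0.0963 in edgeR). PMAIP1, which encodes NOXA, the partner that targets MCL1, was at 21.5 and 10.0 FPKM with overexpression, against 17.0 and 15.3 FPKM in the control, so the overexpression replicates lay on both sides of the controls. Its log2 fold change was 0.15 (SE 0.30), and the sign depended on which overexpression library was kept. It was -0.44 without overexpression replicate 1 and 0.57 without overexpression replicate 2. BCL2L11, which encodes BIM, was at 3.15 and 2.42 FPKM with overexpression, against 3.51 and 3.74 FPKM in the control, and did not pass (log2 fold change -0.18, SE 0.19). The FPKM summed over the 6 BH3-only genes was 89.5 and 86.6 with overexpression, against 63.4 and 59.3 in the control, and its ratio to the summed anti-apoptotic genes was 1.31 and 1.61 with overexpression, against 0.780 and 0.736 in the control. This ratio sets short mRNAs (BIK 953 nt, BAD 1043 nt) against that of MCL1 (3932 nt). With the mRNA length offset described below, BIK came to 0.17, BAD to 0.26 and MCL1 to -0.29, and none passed, while BID kept 0.73. The ratio carries no test.

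Downstream of the mitochondria APAF1 fell the most of all members. APAF1 (ENSG00000120868, chromosome 12, 98645141 to 98735433, plus strand) was at 1.38 and 0.622 FPKM in the overexpression libraries, from 167 and 83 reads, against 4.34 and 4.55 FPKM in the control libraries, from 470 and 642 reads. Every overexpression value was far below the controls, although the overexpression pair differed more than 1.5-fold within itself. APAF1 fell 3.91-fold (log2 fold change -1.97, SE 0.31, adjusted p = 0.00526 in edgeR). Its mean with overexpression was 0.999 FPKM, so it too reached the filter of 1 FPKM through the control libraries. It shares 9.48% of its exonic bases with ANKS1B on the opposite strand. CASP9, the initiator caspase that the apoptosome activates, was at 3.89 and 3.72 FPKM with overexpression and at 3.20 and 3.37 FPKM in the control, with a log2 fold change of 0.42 (SE 0.18, adjusted p = 0.112 in edgeR). The ratio of APAF1 to CASP9 was 0.353 and 0.167 with overexpression, against 1.36 and 1.35 in the control. Here too the mRNAs differ in length (APAF1 5444 nt, CASP9 2019 nt).

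CASP8, the initiator caspase of the death receptor route, was at 7.86 and 7.26 FPKM with overexpression, against 8.20 and 8.09 FPKM in the control (log2 fold change 0.10, SE 0.16, adjusted p = 0.662 in edgeR). CFLAR, its catalytically inactive relative FLIP, was at 1.24 and 1.27 FPKM with overexpression, against 2.07 and 1.89 FPKM in the control, and missed the threshold (log2 fold change -0.45, SE 0.18, adjusted p = 0.0823 in edgeR). XIAP (ENSG00000101966, chromosome X, 123859724 to 123913979, plus strand), which inhibits CASP9 and the executioner caspases directly, was at 6.09 and 4.51 FPKM with overexpression, against 10.2 and 8.24 FPKM in the control. Both overexpression libraries were lower, and XIAP fell 1.51-fold (log2 fold change -0.60, SE 0.19, adjusted p = 0.0464 in edgeR). DIABLO, the mitochondrial protein that relieves caspases from XIAP, was low under its main identifier, at 0.212 and 0.114 FPKM with overexpression, against 0.539 and 0.314 FPKM in the control. Its other identifier overlaps it and had 2 reads, both in control replicate 1.

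The direction of these calls followed mRNA length. The mRNAs of the 7 members that rose were between 793 nt (BAX) and 2594 nt (BCL2L1) long, and those of the 4 that fell were between 3832 nt (XPC) and 8584 nt (XIAP). Log2 fold changes were correlated with mRNA length, with a Spearman coefficient of -0.94 over the 20 tested p53 targets and -0.67 over the 13 BCL2 family and caspase genes. Over all 10571 tested coding genes it was -0.73. These are correlations across genes of the same 4 libraries and are given as descriptions. The mean exonic length of the gene behind a read was 5313 and 5013 nt in the overexpression libraries, against 6226 and 6130 nt in the control libraries. Whether mRNA length or a property that goes with it is behind the differences was not tested.

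**Figure D2:**
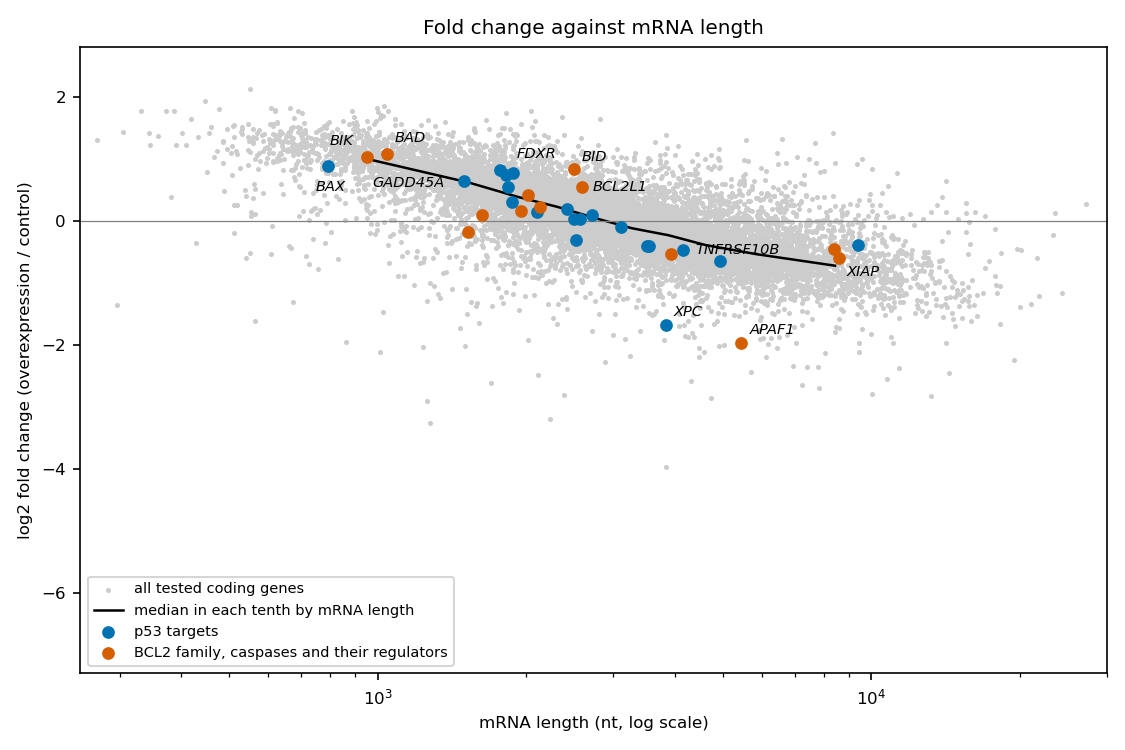
edgeR log2 fold change of CCL20 overexpression over negative control against mRNA length (nt, log axis) for 10571 coding genes in grey, with the median in each decile of length as a black line, p53 targets in blue and BCL2 family and caspase genes in orange. XPC and APAF1 lie farthest below the black line, followed by BCL2L11, MDM2 and CASP8, and BID, BCL2L1 and PHLDA3 lie farthest above it.

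An offset was fitted to the trend on mRNA length over the coding genes of each library. The Spearman coefficient with mRNA length was then -0.07 over all tested coding genes. Over the 20 tested p53 targets it was still -0.49, and over the 13 BCL2 family and caspase genes it was 0.01. With this offset 3 members passed. Of these, APAF1 and XPC averaged under 1 FPKM with overexpression and had reached the filter through the control libraries. Across coding genes 3.63% were then higher and 3.19% lower, against BID higher and APAF1 and XPC lower among the 33 members. Ranges of adjusted p here cover alternatives that include the replicate block with the length offset, though most alternatives carry no length offset. They leave out the fits that join the length offset to omission of a single library. In those fits XPC and BID lost their calls with either control library left out. APAF1 had a log2 fold change of -1.51 (SE 0.28, adjusted p = 0.0206 in edgeR), and its adjusted p lay between 1.40e-34 and 0.0206 in all 16 alternatives that tested it. XPC had -1.45 (SE 0.28, adjusted p = 0.0246 in edgeR), with a range of 1.05e-07 to 0.0246 over 16 alternatives. BID had 0.73 (SE 0.16, adjusted p = 0.0313 in edgeR), with a range of 9.38e-14 to 0.216, and passed in 14 of 17. In their deciles of mRNA length the median log2 fold change without the offset was -0.54 for APAF1, -0.23 for XPC and 0.22 for BID, against their own -1.97, -1.68 and 0.83.

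The other 8 calls ended with the offset. BAX came to -0.06, GADD45A to 0.08, BIK to 0.17, BAD to 0.26 and FDXR to 0.39, with TNFRSF10B at -0.18 and XIAP at 0.10. BCL2L1 kept most of its value, at 0.48 (SE 0.15), but did not pass (edgeR adjusted p = 0.108, with a range of 4.31e-07 to 0.868 over its 17 alternatives). Of these 8 genes BAX and XIAP changed sign. BCL2L11 moved the other way, to -0.73 (SE 0.21), without passing; its annotated principal mRNA has 1522 nt. It passed with span and GC in the offset (-0.66) and with the replicate block beside the length offset (-0.75). The median log2 fold change with the offset was -0.05 for the p53 targets and 0.10 for the BCL2 family and caspase genes, against 0.03 for all coding genes.

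**Figure D3:**
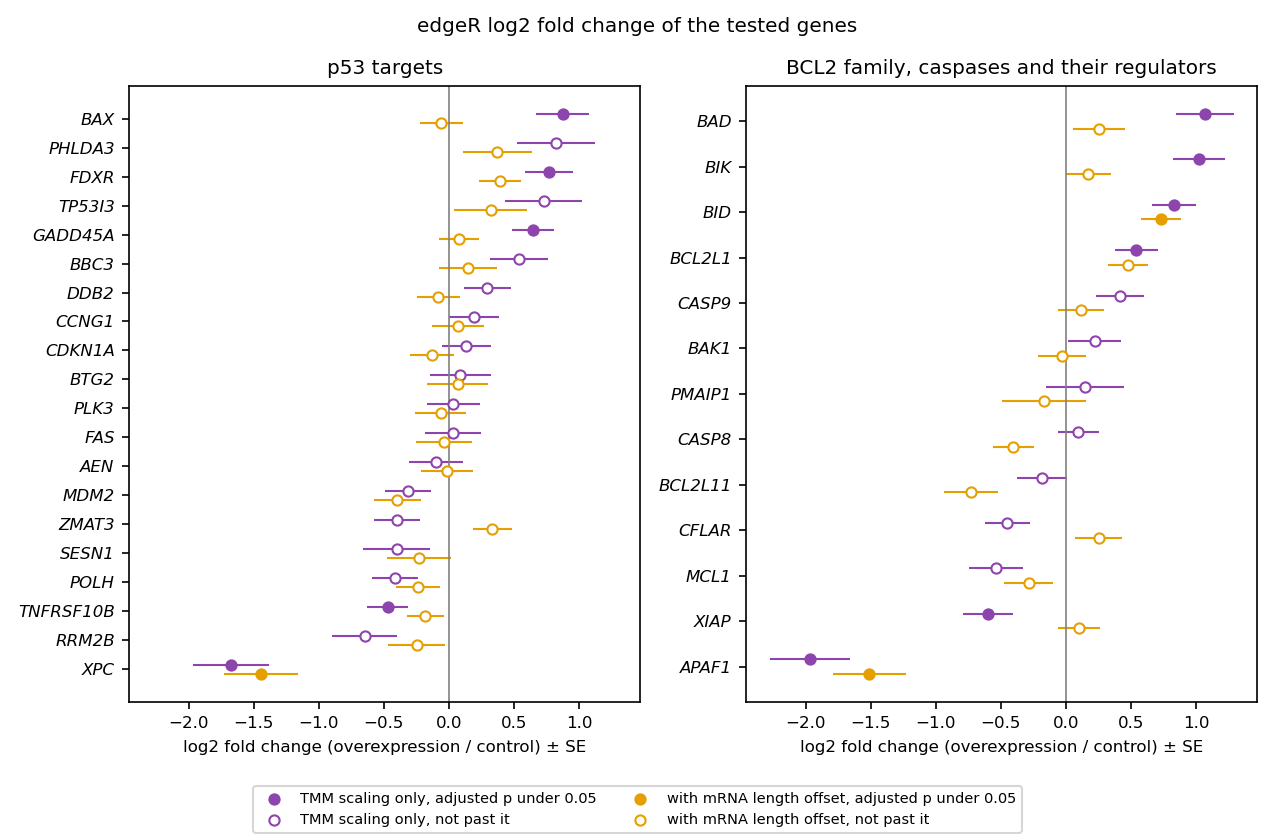
edgeR log2 fold change (CCL20 overexpression over negative control, bars are SE) of the 33 tested members, in purple with TMM scaling alone and in orange with the mRNA length offset; filled points have an adjusted p under 0.05. Purple points run from -1.97 (APAF1) to 1.07 (BAD), and only BID, XPC and APAF1 are filled in orange.

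The calls also rested on the scale and on both control libraries. On a TPM-type scale the median of all tested genes was -0.49. No member was higher there and 11 of the 33 were lower, among them MDM2, MCL1 and POLH. Of all 12168 tested genes 500 were higher and 4516 lower on that scale, so the member counts stand near the background. The change of scale moves every log2 fold change by nearly the same amount. The place of the 7 members that rose, above the median, was thus fixed beforehand and adds no support. With either control library left out, most member calls ended, as did most calls among all tested genes. With either overexpression library left out, more members passed, and so did more of all tested genes. The spread is then taken from the closer control pair. APAF1 kept a log2 fold change between -2.59 and -1.54 whichever library was left out.

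The regulators of p53, a list of 14 genes chosen with earlier results of these data known, were all tested, and 1 rose and 7 fell, with a median log2 fold change of -0.47 (16.5% of all tested genes rose and 15.7% fell). TP53BP1, which binds p53 and guides repair of double-strand breaks, was at 1.89 and 1.47 FPKM with overexpression, against 5.58 and 5.45 FPKM in the control. It had the largest fall of the list, with a log2 fold change of -1.51 (SE 0.18, adjusted p = 0.00433 in edgeR), and shares 28.7% of its exonic bases with TUBGCP4 on the opposite strand. ATM, the kinase that activates p53 after strand breaks, was at 0.826 and 0.658 FPKM with overexpression, against 2.53 and 2.20 FPKM in the control (log2 fold change -1.47), and HIPK2, a kinase that phosphorylates p53 before apoptosis, was at 2.59 and 1.91 FPKM with overexpression, against 7.24 and 6.21 FPKM in the control (-1.38). ATM averaged 0.742 FPKM with overexpression and reached the filter through the control libraries. CDKN2A, whose ARF product restrains MDM2, was the one that rose, at 15.3 and 21.3 FPKM with overexpression, against 10.9 and 11.5 FPKM in the control (0.93). The list's median mRNA length was 5048.5 nt, and with the length offset TP53BP1 alone passed (log2 fold change -0.95, SE 0.16, adjusted p = 0.0157 in edgeR, with a range of 2.94e-27 to 0.0157 over 16 alternatives).

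Of 28 further p53 targets 25 were tested, and 7 rose and 2 fell, with a median log2 fold change of 0.08, against 16.5% and 15.7% of all tested genes. The calls with the largest changes were RPS27L, a ribosomal protein paralogue (1.10), SERTAD1, a CDK4-binding regulator (1.04), E2F7, a repressor of cell cycle genes (-0.97) and TRIAP1, an inhibitor of apoptosis (0.95). RPS27L was at 6.19 and 6.34 FPKM with overexpression, against 3.32 and 3.44 FPKM in the control. E2F7 was at 10.5 and 7.51 FPKM with overexpression, against 21.6 and 18.9 FPKM in the control. With the length offset RPS27L and FBXO22 were higher and none was lower, against 3.63% and 3.19% of coding genes. The annotated principal mRNA is 6434 nt for RPS27L and 10725 nt for FBXO22, and their offsets rest on those lengths. Without the offset FBXO22 had a log2 fold change of 0.14 and did not pass (edgeR adjusted p = 0.566).

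**Figure D4:**
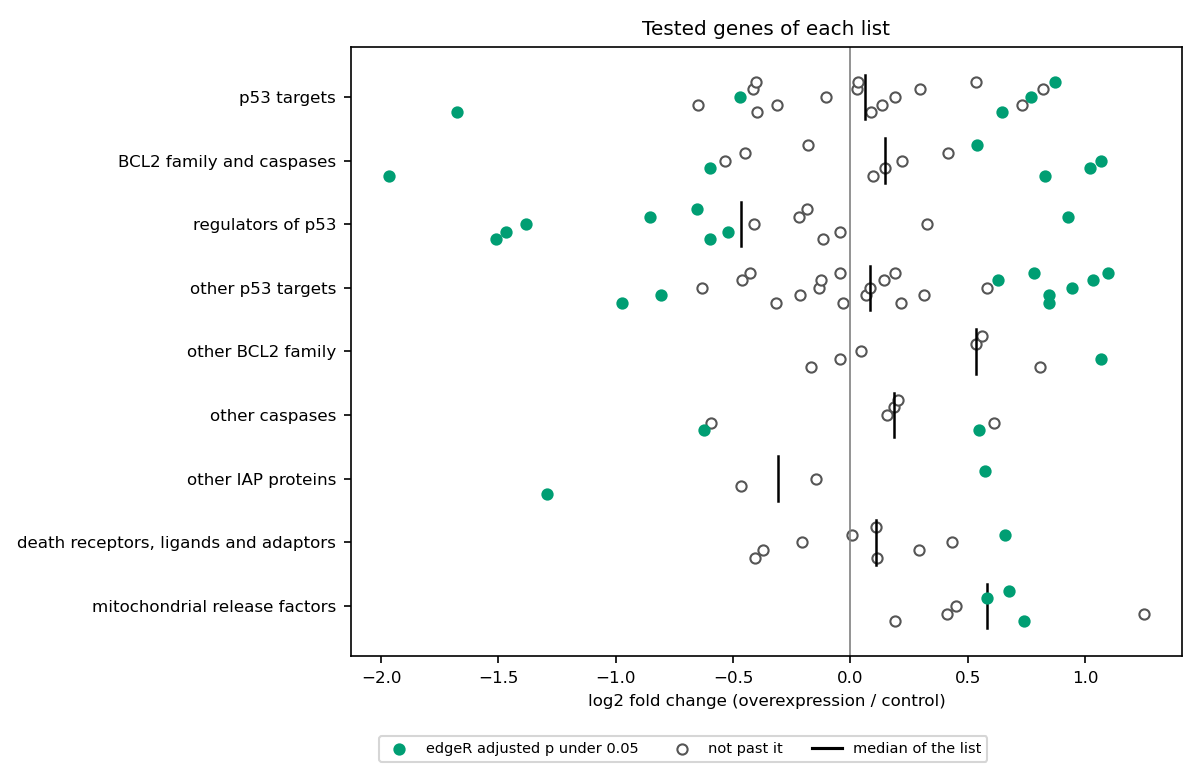
edgeR log2 fold change of the tested genes of each list, one point a gene, with filled points past an adjusted p of 0.05 and a black bar at the list's median. The p53 regulators have the lowest median, -0.47, and the mitochondrial release factors the highest, 0.58.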

How the data were processed

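RNA was measured in 4 CAL27 libraries, 2 per group, grouped by the labels. Reads were processed with HISAT2 and HTSeq 0.13.5 on GRCh38, per the submitters' processing notes; those sources do not state trimming, annotation or strand, so reads of overlapping or antisense genes cannot be separated. The authors deposited whole-read counts per gene. The authors also deposited FPKM, which equals the count divided by gene length and total count; the lengths implied equal the GENCODE 29 union exon length for 99.7% of genes.

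The counts were tested with edgeR 4.0.16 (R 4.3.3; glmQLFit, glmQLFTest, TMM, two-sided, Benjamini-Hochberg over the 12168 genes whose mean FPKM reached 1). SEs were computed from the F statistics. The length offset is a natural spline with 5 degrees of freedom on the median length of the principal GENCODE transcripts, fitted over coding genes. DESeq2 1.42.0, limma 3.58.1, other scalings and filters, a replicate block and omission of single libraries were alternatives. The scripts were tested on simulated data. Replicates differed beyond sampling noise (chi-square per gene 42.5 in the overexpression pair, 7.09 in the control pair). The p53 element was searched in RefSeq windows. The members and lists were chosen with earlier results of these data known. Members past the threshold, MDM2, CDKN1A and the 2 highest members of each list are described by library; of other lists, up to 4 called genes with the largest changes are named. A further gene of the lists is not reported here.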

Additional observations from a re-analysis of the deposited data

How the results depend on the processing

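Counts of members that rose or fell were 3 and 2 for p53 targets and 4 and 2 for BCL2 family and caspase genes; other settings gave, in that order, 0, 7, 0 and 4 (TPM-type scale), 3, 1, 4 and 1 (upper-quartile factors), 3, 1, 3 and 2 (mean FPKM of at least 5), 1, 3, 3 and 2 (limma on log2(FPKM + 0.1)), 0, 1, 1 and 1 (mRNA length offset, or adjusted p under 0.01), 0, 2, 2 and 4 (length, span and GC offset), 5, 3, 4 and 4 (replicate block) and 0, 1, 2 and 2 (replicate block with length offset). Of the 12168 tested genes 3915 were called in the main fit, 5016 on the TPM-type scale and 3922 with upper-quartile factors. With limma on log2(FPKM + 0.1) 3614 were called, and with the replicate block 5758. The filter at a mean FPKM of at least 5 left 6955 genes, of which 2620 were called. Of the 10571 coding genes 721 were called with the length offset and 2644 with the length, span and GC offset. The replicate block with length offset called 2067 of them. Leaving out a library moved the calls among all genes in the same direction as those among members, with or without the length offset. Replicate numbers were shared between the groups (correlation of their deviations 0.265), but with 2 pairs it cannot be told whether they pair the samples. Leaving out each library gave 0 to 7, 1 to 7, 0 to 6 and 1 to 5. The 3 members called with the length offset became 8 with span and GC, 5 with the replicate block and 1 to 14 leaving out a library, settings chosen after seeing the data. Among members past the threshold in the main or the alternative test, signs turned for BAX (-0.0585, -0.0837 and -0.0614) and XIAP (0.1005, 0.0299 and 0.1022) with length, span and GC, and block with length offsets; for CASP8 (-0.33) and GADD45A (-0.001) with span and GC; and for PMAIP1 on leaving out a library (-0.44 to 0.57). The cause was not tested. Of 549 member results under alternatives, 446 kept their side of the threshold and, where past it, their direction. Depth limits genes with few reads, among them XPC, TP53INP1, BCL2, TIGAR and DIABLO. With 1 library in a group, its spread is taken from the other group.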

Other observations

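Genes that work beside the members were counted in the same way; of all tested genes 16.5% rose and 15.7% fell. Of 7 mitochondrial release factors tested, 3 rose and none fell, with a median log2 fold change of 0.58. CYCS, the cytochrome c that joins APAF1 in the apoptosome, was at 189 and 146 FPKM with CCL20 overexpression, against 119 and 111 FPKM in the negative control (log2 fold change 0.74, SE 0.17, edgeR adjusted p = 0.0139). VDAC2 and VDAC3, channels of the outer mitochondrial membrane, had log2 fold changes of 0.68 and 0.58. The list's median mRNA length was 1490.5 nt, and none of the 7 passed with the mRNA length offset.

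Of 7 other BCL2 family genes tested, BCL2L12 rose, at 49.1 and 62.5 FPKM with overexpression, against 29.8 and 31.9 FPKM in the control (log2 fold change 1.07, SE 0.20, edgeR adjusted p = 0.00755). BCL2L12 shares 33.1% of its exonic bases with IRF3 on the opposite strand. Among 7 other caspases CASP1, which matures interleukin-1 beta, rose (0.55) and CASP2, a caspase linked to DNA damage, fell (-0.62). Among 4 other IAP genes BIRC5, which encodes survivin, rose (0.57) and BIRC6, a very large ubiquitin-conjugating inhibitor, fell (-1.29). Of 9 death receptor, ligand and adaptor genes TRADD, the adaptor of TNF receptor 1, rose (0.66). None of these passed with the mRNA length offset.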
